A study of Mus musculus with 6 samples.

Results

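The 10 genes Mpo, Elane, Prtn3, Ctsg, Prss57, Srgn, Cst7, Fcnb, Nkg7 and Ms4a3 were taken by gene symbol as a set marking the primary granules of myeloid progenitors and were read on 6 mouse expression arrays. All 10 were found among 30142 named genes, each on 1 array row. The cells were acute myeloid leukaemia cells driven by the fusion oncogene MLL-AF9, collected from bone marrow when the transplanted mice had reached end-stage disease and then sorted. There were 3 Control arrays, of leukaemia from littermate controls, and 3 Dnmt3b-KO arrays, of leukaemia labelled as knocked out for Dnmt3b, which encodes a DNA methyltransferase. Both groups carried MLL-AF9. The sources used here do not give the deleted exons, the strain, sex and age of the mice, the sorting markers, or whether each array was 1 mouse. With no statement of separate mice, p-values speak only of the spread among these 6 samples, and that spread may be technical.

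Primary or azurophil granules are the first granules that form in the neutrophil lineage, and they are filled at the promyelocyte stage. They hold myeloperoxidase, which makes hypochlorous acid, together with serine proteases that are stored as active enzymes. Transcription of these genes is highest in granulocyte-monocyte progenitors and promyelocytes and is shut down as cells mature, so their messages mark immature myeloid cells, the stage that MLL-AF9 leukaemia resembles. C/EBP factors, PU.1, MYB and RUNX1 are known activators of several of them. Ms4a3 and Nkg7 encode membrane proteins rather than soluble granule contents.

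The array values were log2 intensities and are given as deposited. They reached 19.59, above 16, the log2 of a 16-bit scanner range, so the size of a unit is not settled and no fold is given. Levels of different genes were not compared. All 10 genes lay above the highest of 23 background rows on every array. Array medians ran from 4.75 to 4.85, and the 99th percentile of genes from 16.67 to 16.85. Elane lay above that percentile on all 6 arrays and Mpo on all but Dnmt3b-KO replicate 3, and whether the array still responds in proportion there was not tested. Dnmt3b itself had Control values of 6.76, 6.83 and 6.78 and knockout values, in replicate order, of 6.47, 6.63 and 5.96, a difference of -0.44 ± 0.17 (SE) that did not pass (limma over all genes, adjusted p = 0.781). Without replicate 3 the difference was -0.24 ± 0.07 (adjusted p = 0.159). Whether that row covers the deleted part of the gene is not known. The leukocyte genes Ptprc and Itgam and the MLL-AF9 programme genes Meis1, Mef2c and Hoxa10 were above background. Of these, Meis1 rose by 0.65 (limma, adjusted p = 0.0111) and Mef2c fell by 1.60 (adjusted p = 0.021) without replicate 3, and none passed over 6 arrays. Dnmt3b-KO replicate 3 stood apart: its correlation with each other array across genes was 0.9805 to 0.9816, against 0.9977 to 0.9989 among the other 5. Results are therefore given with and without it, and its own values are shown apart.

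The 250 bases before the RefSeq transcript start (build GRCm38.p6) were read for 9 of the genes, in 10 windows because Srgn has 2 starts. The window of Prss57 was not analysed here. Shown are the windows of myeloperoxidase, of 3 of the serine proteases and of Nkg7. On Dnmt3b-KO replicates 1 and 2 Nkg7 lay below every Control array. Mpo and Prtn3 overlapped the Control values there, and Elane and Ctsg lay above every one. Capitals mark AGGAAG on either strand, the ETS core bound by PU.1 among other factors, and TATAA on the gene's own strand between bases -40 and -15.
Mpo (chr11:87793534-87793783, forward strand): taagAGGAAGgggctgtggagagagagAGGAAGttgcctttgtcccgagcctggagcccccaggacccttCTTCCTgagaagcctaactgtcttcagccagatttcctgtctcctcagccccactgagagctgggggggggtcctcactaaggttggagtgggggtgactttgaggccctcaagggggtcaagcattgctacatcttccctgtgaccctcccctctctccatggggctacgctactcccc
Elane (chr10:79886062-79886311, forward strand): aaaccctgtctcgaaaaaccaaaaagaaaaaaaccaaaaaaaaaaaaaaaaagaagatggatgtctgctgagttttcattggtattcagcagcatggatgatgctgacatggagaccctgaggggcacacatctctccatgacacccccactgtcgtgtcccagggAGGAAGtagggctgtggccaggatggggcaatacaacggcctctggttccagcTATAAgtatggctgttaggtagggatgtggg
Prtn3 (chr10:79879417-79879666, forward strand): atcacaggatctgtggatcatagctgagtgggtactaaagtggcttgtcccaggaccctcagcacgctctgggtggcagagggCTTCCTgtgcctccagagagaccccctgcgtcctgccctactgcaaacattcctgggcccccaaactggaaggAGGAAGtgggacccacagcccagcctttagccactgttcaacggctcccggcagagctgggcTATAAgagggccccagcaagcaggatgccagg
Ctsg (chr14:56102575-56102824, reverse strand): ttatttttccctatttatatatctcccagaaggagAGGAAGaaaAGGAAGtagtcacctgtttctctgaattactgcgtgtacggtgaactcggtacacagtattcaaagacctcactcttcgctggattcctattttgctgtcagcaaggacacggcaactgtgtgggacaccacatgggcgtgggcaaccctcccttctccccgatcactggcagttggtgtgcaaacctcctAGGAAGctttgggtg
Nkg7 (chr7:43436888-43437137, forward strand): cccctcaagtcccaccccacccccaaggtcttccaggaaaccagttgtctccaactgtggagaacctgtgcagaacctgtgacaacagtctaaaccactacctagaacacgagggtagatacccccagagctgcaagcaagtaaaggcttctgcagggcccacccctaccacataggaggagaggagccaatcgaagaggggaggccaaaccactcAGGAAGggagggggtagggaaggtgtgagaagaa
The motif AGGAAG lay in the windows of 8 of the 9 genes, every one but Srgn, and in 29.49% of all 32841 windows of that length. A TATAA between bases -40 and -15 lay before Elane at -31 to -27, Prtn3 at -32 to -28 and Fcnb at -37 to -33, which is 3 of the 9 genes, against 3.56% of all windows. The MYB letters AACNG, searched on both strands, were in the windows of 8 genes, against 74.2% of all windows. RUNX letters TGTGGT were in those of 4 genes, against 14.05%. The C/EBP letters TTGCNNAA were in the window of 1 gene, Fcnb, against 9.57%. TATAA on either strand anywhere lay in the windows of 5 genes, against 22.79%. CpG sites, the target of DNA methyltransferases, numbered 0 to 7 per window, against a median of 6 in all windows. The counts were 0 for Fcnb and Ms4a3, 2 for Mpo and Nkg7, 3 for Elane, 4 for Prtn3 and Cst7, 5 and 3 for the 2 starts of Srgn, and 7 for Ctsg. No methylation data were used here, and a match of letters does not show binding. The motifs were picked after the sequences had been seen.

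**Figure D1:**
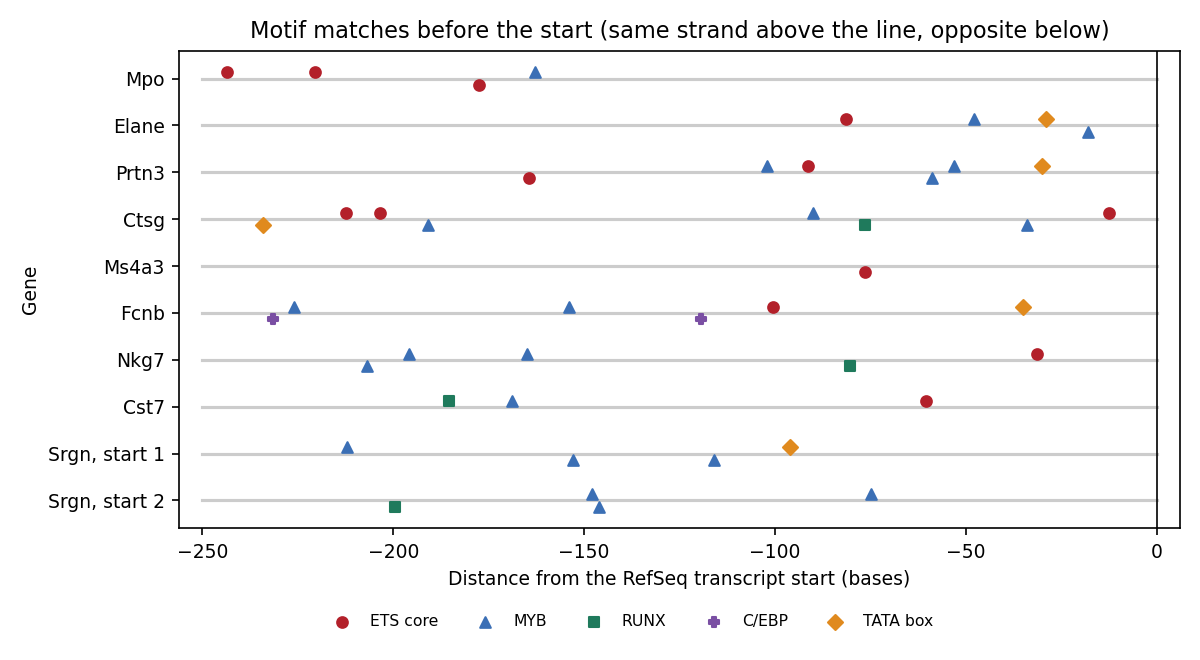
Positions of motif matches in the 250 bases before the RefSeq start of 9 of the genes (Srgn with 2 starts); the horizontal axis is the distance from the start in bases, and symbols above a line lie on the gene's own strand. An ETS core (red circles) is present before every gene shown but Srgn, and the TATA box of Elane, Prtn3 and Fcnb (orange diamonds) lies between bases -37 and -27.

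Across all 6 arrays none of the 10 genes passed the threshold, an adjusted p under 0.05 over all genes by limma, and 0% of the 30142 genes did. At an unadjusted p under 0.05 there were 1920 genes, among them Fcnb and Nkg7. The 10 differences, Dnmt3b-KO minus Control, all lay below 0, with a median of -0.38 against -0.004 for all genes and -0.05 for genes above the median level. That direction rests on Dnmt3b-KO replicate 3 for 6 genes, since without it Mpo, Elane, Prtn3, Ctsg, Prss57 and Srgn had differences above 0. Without that array 509 genes passed, 1.69% of those tested, and again 0 of the 10. The median of the 10 was then 0.04, against -0.01 for all genes.

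Myeloperoxidase, the enzyme that defines the myeloid lineage in clinical cytochemistry, kept the Control level on the first 2 knockout arrays. Mpo measured 17.46, 17.42 and 17.36 in Control. Its knockout values, here and below in the order of replicates 1, 2 and 3, were 17.49, 17.41 and 16.54. The first 2 knockout values lay within or just above the Control values, and replicate 3 lay below all others. The difference was -0.27 ± 0.26 (SE; limma, adjusted p = 0.835) over 6 arrays, and 0.03 without replicate 3, with a 95% interval of -0.12 to 0.18 (adjusted p = 0.885).

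Elane encodes neutrophil elastase, and Prtn3 its close relative proteinase 3. Both genes lie side by side on chromosome 10. Elane measured 17.99, 17.89 and 17.86 in Control and 18.09, 18.06 and 17.42 in Dnmt3b-KO. Both of the first 2 knockout arrays lay above every Control array and replicate 3 lay below every one. Without replicate 3 the difference was 0.16 ± 0.06 (SE), with an interval of 0.01 to 0.31 and an unadjusted p of 0.0435 that did not hold over all genes (limma, adjusted p = 0.305). Prtn3 measured 15.31, 15.23 and 15.36 in Control and 15.42, 15.36 and 14.55 in Dnmt3b-KO. Its difference without replicate 3 was 0.09, with an interval of -0.06 to 0.25 (limma, adjusted p = 0.584). As for Elane, replicate 3 alone lay below the Control values.

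Ctsg, cathepsin G, lies on chromosome 14 beside genes of mast cell proteases and granzymes. It was the most even of the 10 in Control, at 16.33, 16.31 and 16.32, and measured 16.40, 16.36 and 15.41 in Dnmt3b-KO. The first 2 knockout arrays lay above every Control array by small amounts, and the difference without replicate 3 was 0.05, with an interval of -0.07 to 0.18 (limma, adjusted p = 0.73). Prss57 encodes neutrophil serine protease 4. It measured 10.05, 9.75 and 10.04 in Control and 10.08, 9.99 and 8.30 in Dnmt3b-KO, so that the groups overlapped on 5 arrays. Of the 10 genes it had the greatest drop from replicates 1 and 2 to replicate 3, at -1.73.

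Srgn encodes serglycin, the proteoglycan whose charged chains hold proteases in granules. Of the 10 it had the smallest range over the 5 arrays and the smallest drop on replicate 3: 13.95, 13.98 and 13.98 in Control against 14.03, 14.02 and 13.70 in Dnmt3b-KO. Its difference was -0.06 ± 0.10 (SE; limma, adjusted p = 0.908) over 6 arrays and 0.05 without replicate 3, with an interval of -0.07 to 0.18. The first 2 knockout arrays lay just above all Control values. Cst7 encodes cystatin F, an inhibitor of the cysteine cathepsins that trim granule proteases to their active forms. It measured 10.71, 10.69 and 10.80 in Control and 10.73, 10.68 and 9.15 in Dnmt3b-KO. Without replicate 3 its difference was -0.03, with an interval of -0.18 to 0.12 (limma, adjusted p = 0.896), and the groups overlapped.

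The other 3 genes, Nkg7, Fcnb and Ms4a3, were lower than every Control array on all 3 knockout arrays. For comparison, 8.21% of all genes had every knockout array below every Control array. On the 5 arrays without replicate 3 the same 3 genes had both knockout values below all Control values, as did 17.4% of all genes. Elane, Ctsg and Srgn had both above all Control values, as did 15.1%. No test of these counts was made. Markers of other blood cells were also read by list. For mast cells, basophils and eosinophils the mean level over 14 markers was 6.38 to 6.44 in Control and 5.53, 5.70 and 4.96 in Dnmt3b-KO. Of these 14, 7 were above background on any array. Without replicate 3 limma called 6 of them lower, Cpa3, Prg2, Hdc, Epx, Ms4a2 and Gata2, by 0.48 (Gata2) to 3.36 (Prg2) log2 units. The seventh, the basophil protease gene Mcpt8, lay above every Control array on replicates 1 and 2, with a difference of 0.64 that did not pass (adjusted p = 0.167). Erythroid markers, 6 measured, had a mean level of 6.39, 6.36 and 6.03 in Control and 5.88, 5.73 and 5.73 in Dnmt3b-KO. None of the 6 passed in either comparison; without replicate 3 the difference was -1.15 for Alas2 (adjusted p = 0.0705) and -1.04 for Slc4a1 (adjusted p = 0.162), and 0.27 for Tfrc (adjusted p = 0.148). B cell markers, 7 measured, had a mean level of 4.79 to 5.0 on the 5 arrays and 5.33 on replicate 3, and none passed. Ctsg, Srgn and Ms4a3 are also expressed in mast cells or basophils, and the part of any of these cells in the values of the 10 genes was not tested.

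Nkg7, a membrane protein of cytotoxic granules that is also expressed in myeloid cells, measured 11.63, 11.42 and 11.60 in Control and 10.80, 11.10 and 9.45 in Dnmt3b-KO. The difference was -1.10 ± 0.43 (SE; limma, adjusted p = 0.775) over 6 arrays. Without replicate 3 it was -0.60 ± 0.11 (SE), with an interval of -0.87 to -0.34 (adjusted p = 0.0639), just short of the threshold. With 1 more array removed the adjusted p was 0.0886 to 0.267. Over the other alternatives it ran from 0.024, with genes below the median level removed and so fewer genes tested, to 0.336, without empirical Bayes. Nkg7 is also a gene of natural killer and T cells, and Srgn and Cst7 are expressed there too. Of 14 markers of those cells, among them Ncr1, Gzmb, Prf1 and Cd3e, 0 were above the highest background row on any array, and their mean level was 3.91 to 3.97 on the 5 arrays and 4.05 on replicate 3.

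Fcnb encodes ficolin B, a lectin that starts the complement cascade and is made by immature myeloid cells. It measured 7.60, 7.42 and 7.99 in Control and 7.05, 6.86 and 5.96 in Dnmt3b-KO, and the groups did not overlap. Over 6 arrays the difference was -1.04 ± 0.32 (SE; limma, adjusted p = 0.682), and without replicate 3 it was -0.71 ± 0.17 (SE), with an interval of -1.12 to -0.31 (adjusted p = 0.113). Leaving out 1 more array gave adjusted p from 0.101 to 0.36. Over the other alternatives it ran from 0.048, with genes below the median level removed, to 0.403, without empirical Bayes. Among the 10 genes Fcnb had the widest spread in Control (SD 0.29, n = 3), with its highest value in Control replicate 3. Of 14 measured late granule genes, 12 were likewise highest among the Control arrays in replicate 3, for example Ngp, a granule protein of later neutrophil stages, at 9.64, 9.33 and 10.63. Among the 12, Itgb2l and Ceacam10 were above background on no array. Of the 10 primary granule genes 3 were highest among the Control arrays in replicate 3, Fcnb, Prtn3 and Cst7. The share of all genes with that order was not counted, so neither count can be set against it.

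Ms4a3 encodes a membrane protein with 4 spans that marks granulocyte-monocyte progenitors. It measured 14.38, 14.48 and 14.42 in Control and 14.26, 14.12 and 12.68 in Dnmt3b-KO. The difference was -0.74 ± 0.42 (SE; limma, adjusted p = 0.83) over 6 arrays and -0.24 ± 0.07 without replicate 3, with an interval of -0.40 to -0.07 (adjusted p = 0.165). That separation depended on the scaling: after repeated quantile normalization the difference without replicate 3 was -0.05 (adjusted p = 0.846), and the knockout values no longer lay below all Control values, whereas those of Nkg7 and Fcnb still did.

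**Figure D2:**
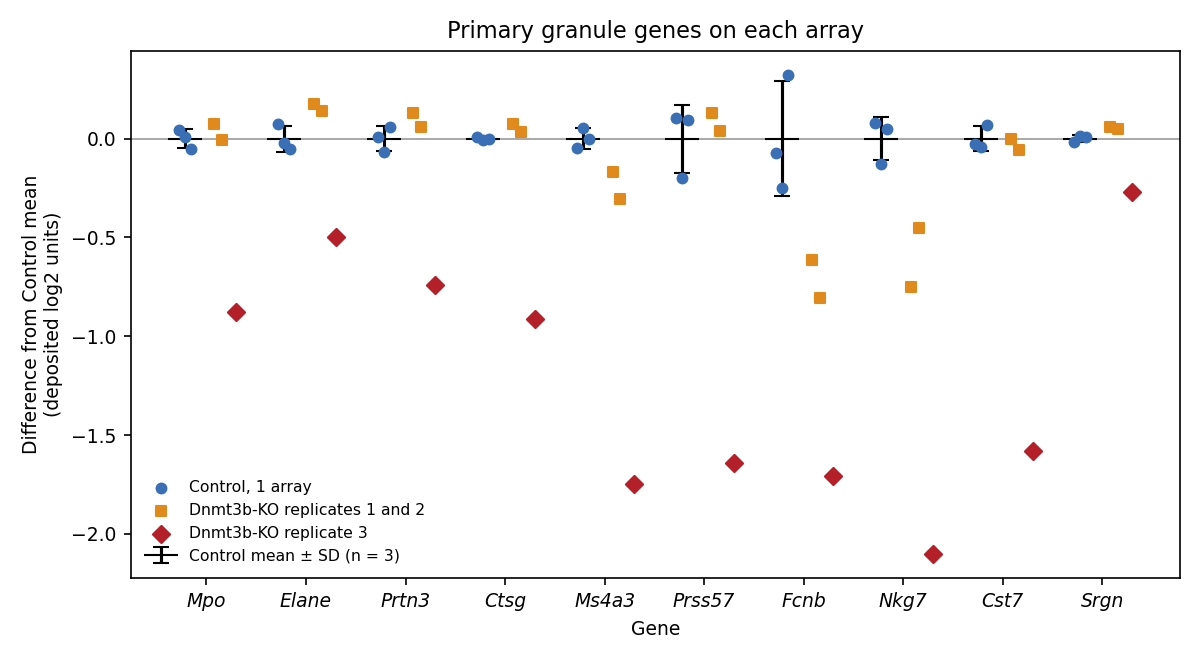
Values of the 10 genes on each array as the difference from that gene's Control mean, in deposited log2 units; blue circles are the 3 Control arrays with their mean and SD, orange squares Dnmt3b-KO replicates 1 and 2, and red diamonds Dnmt3b-KO replicate 3. Replicate 3 is the lowest point for every gene, while replicates 1 and 2 lie apart from the Control points by the most for Fcnb and Nkg7.

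**Figure D3:**
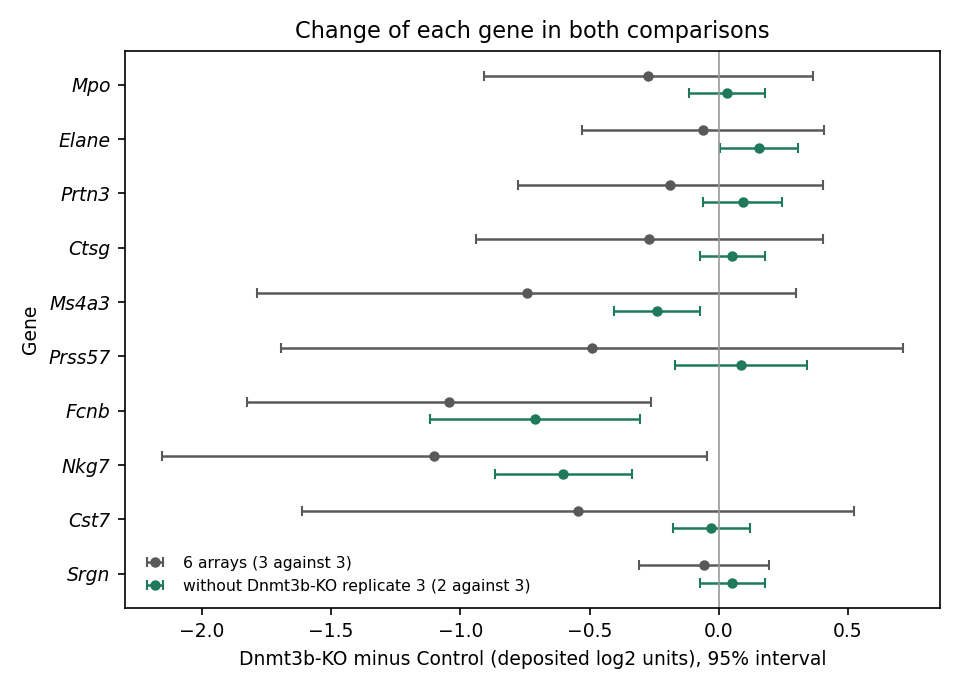
Dnmt3b-KO minus Control for each gene in deposited log2 units, with 95% intervals from limma; grey uses all 6 arrays and green leaves out Dnmt3b-KO replicate 3. Over 6 arrays the intervals of 8 genes include 0; without replicate 3 those of Nkg7 (-0.87 to -0.34), Fcnb (-1.12 to -0.31), Ms4a3 (-0.40 to -0.07) and Elane (0.01 to 0.31) do not, though none of these passed once adjusted over all genes.

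Dnmt3b-KO replicate 3 held the lowest value of the 6 arrays for all 10 genes. This was so for 31.3% of all genes and for 51.5% of the 15071 genes above the median level, to which all 10 belong. Against the mean of replicates 1 and 2, the differences ran from -1.73 for Prss57 to -0.33 for Srgn, with a median of -0.98. Among genes above the median level the median was -0.15 and the 5th percentile -1.06. Lower by more than 1 were Prss57, Cst7 (-1.55), Ms4a3 (-1.51) and Nkg7 (-1.50), 4 of 10. So were 2.94% of all genes, and 883 of the 15071 genes above the median level. Fcnb, Ctsg, Mpo, Prtn3 and Elane followed, from -0.997 for Fcnb to -0.655 for Elane. This is 1 array, so the differences have no replicate check and no test was made. All 10 genes were still lowest there after repeated quantile normalization and after centring of the arrays, with medians of -0.96 and -1.07. In bulk samples, fewer cells of a type and less RNA per cell cannot be told apart.

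Markers of monocytes and macrophages moved the other way on that array. Their mean level over 15 measured genes was 6.83, 6.89 and 7.0 in Control, 7.09 and 6.88 on Dnmt3b-KO replicates 1 and 2, and 9.71 on replicate 3. There 12 of the 15 lay above all other arrays and 3, Ly86, F13a1 and Ccr2, below all others. Of all 30142 genes, 10209 lay above all other arrays there. Gpnmb measured 16.16 and at most 5.55 elsewhere, Mrc1 12.05 and at most 4.63, and Ctss 13.99 and at most 8.73. On the other 5 arrays 9 of the 15 were above background, and on any array 12. The remaining genes, C1qa, Ms4a7 and Mertk, were among those that lay above all other arrays on replicate 3. Myeloid progenitor markers were mostly lower on replicate 3, with a median difference from replicates 1 and 2 of -1.41 over 9 genes. There 7 of the 9 lay below all other arrays, among them Flt3, which was above background on no array. The other 2, Fcgr3 and Cd48, lay above all other arrays, at 15.13 and 11.42 against at most 14.35 and 10.76 elsewhere. The part of any of these cells in the values of the granule genes was not tested.

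**Figure D4:**
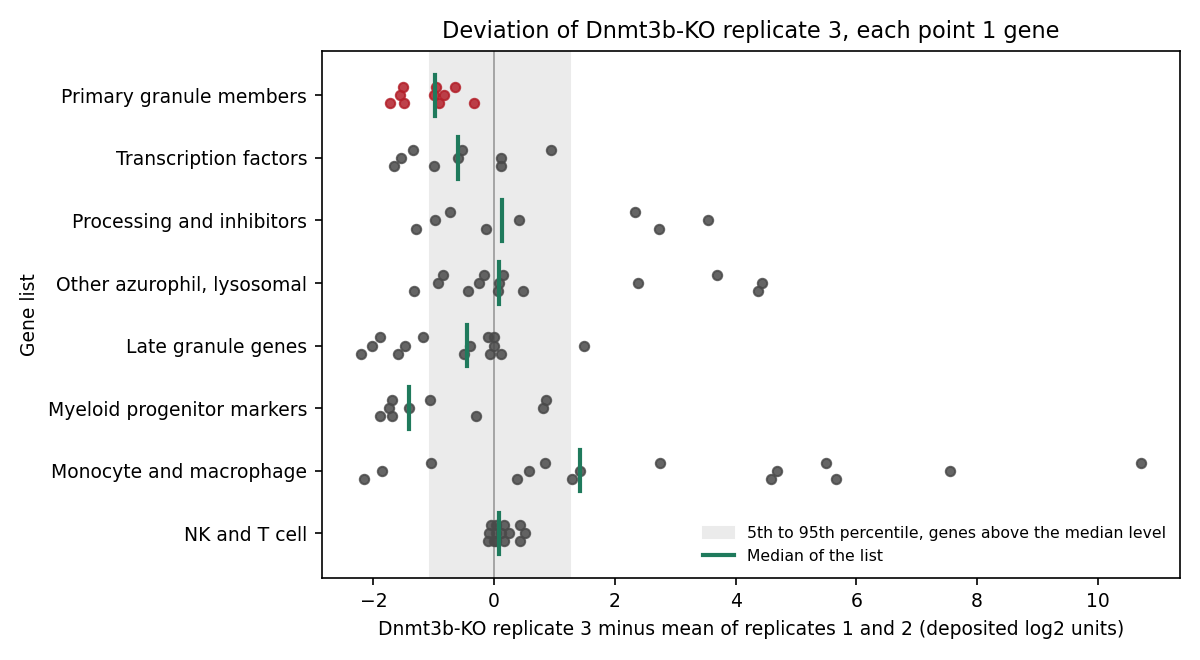
Difference between Dnmt3b-KO replicate 3 and the mean of replicates 1 and 2, in deposited log2 units; each point is 1 gene, rows are gene lists, green bars are list medians and the grey band spans the 5th to the 95th percentile of genes above the median level (-1.06 to 1.25). All 10 primary granule genes (red) lie below 0 with a median of -0.98, whereas monocyte and macrophage genes have a median of 1.42 and reach 10.71.

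Transcription factors of the granule genes were read as a list of 10, of which 9 were measured and none passed in either comparison. Their median difference was -0.32 over 6 arrays, with 2 genes above 0 and 7 below. Without replicate 3 it was -0.10, with 3 above 0 and 6 below. On replicate 3, 6 of the 9 lay below all other arrays, and Cebpb and Irf8 lay above all others. On replicates 1 and 2 Irf8 (-0.596) and Runx1 (-0.188) lay below every Control array, and Cebpb (0.187) and Myb (0.123) above every one. Cebpe, which drives the step to late granulocytes, measured 9.84, 9.31 and 9.43 in Control and 8.77, 8.95 and 7.31 in Dnmt3b-KO. All its knockout values lay below Control, with a difference of -1.19 ± 0.45 (SE; limma, adjusted p = 0.77) over 6 arrays and -0.67 ± 0.16 (adjusted p = 0.115) without replicate 3. Gfi1, a repressor needed for neutrophil development, differed by -0.65 over 6 arrays and -0.10 without replicate 3, and Cebpa, which opens the granulocyte-monocyte programme, by -0.48 and -0.15. Neither passed. Myb, which activates several granule genes in progenitors, measured 16.15 on average in Control, 16.31 and 16.23 on the first 2 knockout arrays and 14.93 on replicate 3.

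Proteins that fold, activate or inhibit granule enzymes were measured by 8 of 10 listed genes, none of which passed. Ctsc, the peptidase that activates the granule serine proteases, measured 9.10, 9.41 and 9.55 in Control and 8.87, 8.66 and 12.32 in Dnmt3b-KO. It was lower than Control on replicates 1 and 2, by -0.59 ± 0.14 (SE; limma, adjusted p = 0.118), and 3.55 above their mean on replicate 3. Serpinb6a and Cstb, a serpin and a cystatin, were also higher on replicate 3, at 9.44 and 13.15 against at most 6.79 and 11.16 elsewhere. Serpinb1a, an inhibitor of elastase and proteinase 3 inside the neutrophil, was chosen after its values were seen. It measured 17.28 on each Control array, 17.20 and 17.19 on replicates 1 and 2, and 15.91 on replicate 3. Like the proteases it was lowest on replicate 3. On replicates 1 and 2 it lay below every Control array, as did 17.4% of all genes, with a difference of -0.083 (limma, adjusted p = 0.534). On those 2 arrays Elane and Ctsg lay above every Control array, while Prtn3 and Prss57 overlapped the Control values.

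Other azurophil and lysosomal contents went both ways on replicate 3. Of 14 measured genes 8 lay above all other arrays there and 6 below, with a median difference from replicates 1 and 2 of 0.07. Among the 6 were Man2b1, Arsb and Galns, genes of lysosomal enzymes, which differed by -1.33, -0.94 and -0.85. Bpi, also among the 6, was above background on no array. The difference between this list and the 10 genes was not tested. Lyz2, Lyz1 and Cd68, encoding lysozymes and a lysosomal protein of macrophages, measured 17.97, 11.86 and 14.60 on replicate 3 and at most 13.89, 8.35 and 10.53 elsewhere. Lyz1 and Lyz2 are near-identical copies, so their signals may not be separate. None of the 14 passed in either comparison. Their median difference was 0.03 over 6 arrays, with 8 genes above 0 and 6 below. Without replicate 3 it was 0.11, with 12 above 0 and 2 below. Man2b1 came nearest to the threshold there, with a difference of 0.476 (limma, adjusted p = 0.0681).

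Genes of the stages before and after the primary granule were read as separate lists. Of 9 measured myeloid progenitor markers 1 passed without replicate 3: Cd34, a surface protein of early progenitors, fell by 1.01 ± 0.15 (SE; limma, adjusted p = 0.0378). The list, Cd34 included, had a median of 0.11, with 6 genes above 0 and 3 below. Among the 6, Kit (0.287), Csf2ra (0.402) and Mgst1 (0.455) lay above every Control array on replicates 1 and 2, and none of them passed. Of 14 late granule genes 1 passed there, Retnlg, a resistin-like neutrophil protein, which fell by 0.81 ± 0.08 (limma, adjusted p = 0.0161) from values that lay near background. Over 6 arrays 0 members of either list passed. The late granule list had median differences of -0.16 in both comparisons, and without replicate 3 it went both ways, with 6 genes above 0 and 8 below. The largest difference there was a rise, 1.375 for Olfm4, just short of the threshold (limma, adjusted p = 0.0543). Mmp9 (0.833, adjusted p = 0.0711) and Cd177 (0.707, adjusted p = 0.128) also lay above every Control array on replicates 1 and 2. Ngp lay below every Control array there, with a difference of -0.952 (adjusted p = 0.284).

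Neighbouring genes were read where granule proteases lie together. Prss57, Prtn3 and Elane lie within a short stretch of chromosome 10, with Palm, Misp, E130317F20Rik and Ptbp1 between Prss57 and Prtn3 in RefSeq gene order. Of 14 neighbours of these 3 genes, 9 were lowest on Dnmt3b-KO replicate 3, with a median difference from replicates 1 and 2 of -0.36. Lowest there were also 31.3% of all genes and 51.5% of genes above the median level. Of the 14, 10 were above background on any array, and Kiss1r, among the 9, was above it on none. Without replicate 3, Palm, which encodes the membrane protein paralemmin, rose by 0.45 (limma, adjusted p = 0.0315), while Prss57 beside it differed by 0.09 (adjusted p = 0.797). Gm24019, a small nuclear RNA gene next but one to Elane, fell by 0.55 there (adjusted p = 0.0315), on values that 48 genes share, so it cannot be assigned to this place. Of the 10 neighbours of Ctsg, 2 were above background on any array. Mcpt8, described above among basophil markers, measured 9.87, 9.88 and 10.37 in Control and 10.86, 10.50 and 8.80 in Dnmt3b-KO, a difference of 0.64 (adjusted p = 0.167) without replicate 3. None of the 10 passed in either comparison.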

How the data were processed

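Expression was measured on 6 Affymetrix mouse arrays. The authors deposited log2 values, made with RMA per the submitters' processing notes; its version and the genome build were not given in the sources used. The table holds 72688 rows, 6732 of them controls. Rows with exactly 1 gene symbol (30604) were named from an older platform annotation, 827 symbols were updated through the gene identifier, and each of the 30142 genes was read on its row of highest mean. Differences between the groups were fitted with limma 3.58.1 (R 4.3.3; lmFit, eBayes) over 6 arrays and without Dnmt3b-KO replicate 3, with Benjamini-Hochberg adjustment over all genes and a threshold of 0.05. The fits were tested on simulated data. Background is the highest of 23 background rows of an array. Intervals are 95% and cover single genes. Precision is limited by the number of arrays.

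The genes, the lists and the comparison without Dnmt3b-KO replicate 3 were chosen with earlier results of these data known. Named are all 10 genes, the members of each companion list (transcription factors, processing proteins, other azurophil contents, progenitor and late granule genes) that passed in either comparison or else the 3 with the largest difference over 6 arrays, and the neighbours that passed among 5 on each side. Markers of other cells are given by list, and further genes named are examples chosen after their values were seen. Sequences are from RefSeq (GRCm38.p6). The fits were repeated with array weights, without empirical Bayes, with a trended and robust prior, with replicate number as a block, after median centring or a further quantile normalization, and with a threshold of 0.1. They were also repeated on genes above the median level, on row means, on every named row, with identical values counted once, and with each array left out. Figures were drawn with matplotlib 3.10.9.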

Additional observations from a re-analysis of the deposited data

How the results depend on the processing

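None of the 10 genes passed over 6 arrays under any alternative run. The count of all genes was 0 except with array weights (103; 60 higher, 43 lower), and from 0 to 509 when 1 array was left out. Those weights, 0.11 for Dnmt3b-KO replicate 3 and at least 1.26 for each other array, turned small differences above 0: Elane 0.1274, Prtn3 0.0545, Ctsg 0.0171, Prss57 0.008 and Srgn 0.0412. Repeated quantile normalization turned Srgn to 0.0292. Leaving out 1 array gave -0.4437 to 0.0311 for Mpo, -0.1799 to 0.1568 for Elane, -0.3432 to 0.092 for Prtn3, -0.4403 to 0.0533 for Ctsg, -0.802 to 0.085 for Prss57 and -0.1138 to 0.052 for Srgn, the upper end in each without Dnmt3b-KO replicate 3.

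Without that array, the 0 granule genes that passed became 2 (Nkg7 and Fcnb) among genes above the median level and 1 (Nkg7) at an adjusted p under 0.1. Instead of 509 genes, 996 passed when only genes above the median level were tested, 1148 at an adjusted p under 0.1, 0 by limma without empirical Bayes (3781 at an unadjusted p under 0.05) and 96 with a replicate block; the cause of the last 2 was not tested. With 1 further array removed there were 13 (without Dnmt3b-KO replicate 1) to 262 genes (without Control replicate 2), and 0 of the 10; a lone knockout array is then assumed to vary like the controls. Differences near 0 changed sign: Mpo ran from -0.0095 to 0.0717, Prss57 from -0.0143 to 0.1376 and Cst7 from -0.0563 to 0.0056, and Cst7 was 0.0056 with the block. Over 6 arrays the block gave 0 genes, and it called none of the 10 in either comparison. Same-numbered arrays had correlated deviations of 0.13, 0.03 and 0.11, and each Control array deviated most like the knockout array of its own number. Dnmt3b-KO replicate 2, however, deviated most like Control replicate 1 (0.09). With so few arrays per group and Dnmt3b-KO replicate 3 standing apart, these values are no test of pairing. The main fits did not use the numbers as pairs.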
